A study of Mus musculus with 106 samples.

Results

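C57BL/6J, the inbred mouse strain most used in research, was compared on a chow diet with 8 other inbred strains by the mRNA content of its liver. The C57BL/6J set is every library labelled with that strain and the chow diet, 6 libraries from 3 females and 3 males, out of 54 chow libraries and 106 libraries in all. The comparison set is the chow libraries of WSB/EiJ, PWK/PhJ, CAST/EiJ, NZO/HlLtJ, A/J, NOD/ShiLtJ, DBA/2J and 129S1/SvImJ, each with 3 females and 3 males apart from 129S1/SvImJ with 2 females, because 1 chow column was left out. Each strain counted equally and the sexes were averaged, so the comparison answers how liver mRNA of C57BL/6J differed from an average of the other strains. All of these mice were 21 weeks old and carried no transgene or treatment per the labels. From 8 weeks of age they had eaten a chow in which fat gave 6%, protein 20% and carbohydrate 74% of the energy. The 52 libraries of the high-fat diet, 6 of them C57BL/6J, served as a second set of animals for the same strain comparison.

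The liver makes most plasma proteins, clears drugs and hormones through cytochrome P450 and conjugating enzymes, disposes of nitrogen through the urea cycle, and both makes and exports cholesterol. Inbred strains are homozygous nearly everywhere, so a strain difference in liver mRNA can come from variants near the gene, from copy number of gene clusters such as the major urinary proteins, or from factors acting across the genome. CAST/EiJ, PWK/PhJ and WSB/EiJ were derived from wild mice, whereas the other strains descend from fancy and laboratory stocks. The mouse reference assembly was built from C57BL/6J DNA.

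Gene counts summed to between 48163400 and 55399800 per C57BL/6J library, rounded, and to between 38773500 and 63341700 in the 47 others. Reads aligned to more than 1 place made up 14.7% to 21.4% of the C57BL/6J libraries and 13.4% to 26.5% of the others, and reads ambiguous between genes made up 5.14% to 5.43% and 4.76% to 6.54%. The third C57BL/6J male (male 3) stood apart. Its log2 CPM, the log of counts scaled to the same library size, correlated across genes at 0.970 and 0.972 with the other C57BL/6J males, whereas those correlated at 0.992 with each other and the 3 females at 0.987 to 0.991. All 10 hepatocyte markers were measured, and their summed level ran from 83981 to 126868 CPM in C57BL/6J and from 84297 to 197875 CPM elsewhere. All 12 C57BL/6J mice of the series carry animal numbers of 1 series and the 94 other libraries numbers of another, and mice entered in cohorts that the labels do not tie to libraries. Strain and these features cannot be told apart.

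Of 14330 genes, 5513 (38.5%) differed between C57BL/6J and the other strains on chow at an adjusted p under 0.05, 2950 higher (20.6%) and 2563 lower (17.9%) in C57BL/6J. The test was edgeR's quasi-likelihood test with Benjamini-Hochberg adjustment, and its error is the spread between mice of a strain and sex. Most differences were small, with a median size of 0.46 on the log2 scale among called genes, and 1007 genes differed by at least 1. When each strain was reduced to 1 value and C57BL/6J was set against the spread among the 8 strains, 10 genes passed with limma, and 382 had an unadjusted p under 0.05. The larger count therefore describes this strain against the average of these 8 and not against strains in general. Of the 10 genes, Gm15920, Eno1b, Eif3j2, Gm14165, Gm5801, Gm6969, Gm11868 and Mup15 have a near-identical copy, so their levels are uncertain, as described below. Called genes numbered 3420 (23.9%) in females and 4219 (29.4%) in males, and 1916 were called in both, 1895 of them in the same direction. Without female 1 or female 2 the count in females was 1879 or 2207, and without male 3 the count in males was 2067. By single strain, 129S1/SvImJ was nearest with 3359 genes called (23.4%), followed by DBA/2J with 4020 (28.1%) and NOD/ShiLtJ with 4068 (28.4%). A/J had 5088 (35.5%), NZO/HlLtJ 5521 (38.5%), PWK/PhJ 6900 (48.2%), WSB/EiJ 7234 (50.5%) and CAST/EiJ, the farthest, 7905 (55.2%).

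A gene was called apart when C57BL/6J differed from each of the 8 strains singly and in the same direction. There were 255 such genes (1.78%), 133 higher (0.928%) and 122 lower (0.851%) in C57BL/6J. The same count was 95 for 129S1/SvImJ, 125 for DBA/2J, 145 for NOD/ShiLtJ, 200 for A/J, 558 for NZO/HlLtJ, 1191 for WSB/EiJ, 1268 for PWK/PhJ and 1769 for CAST/EiJ, so C57BL/6J held more than the other classical strains except NZO/HlLtJ. On the high-fat diet, in other mice, 131 of the 133 higher genes and 118 of the 122 lower genes kept their direction and 121 and 102 were called, where 42.2% of all genes were called, 22% higher and 20.2% lower. Across all genes 75.1% had the same direction on both diets. In 69 genes (0.482%) all 6 C57BL/6J libraries lay outside the range of the 47 others.

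Several of the genes that stood highest were close to absent elsewhere. They were picked for the largest log2 differences, with a floor of 1 CPM in C57BL/6J and none elsewhere. Low levels elsewhere follow in part from this choice. Trim12a, of the Trim5 family of antiviral ubiquitin ligases, had 8.51, 9.04 and 6.70 CPM in the 3 C57BL/6J females and 4.84, 4.68 and 7.87 CPM in the 3 males, against a lowest value of 0, a median of 0.0197 and a highest of 0.880 CPM in the other libraries. No library of another strain reached the lowest C57BL/6J library, and NZO/HlLtJ came nearest. The fitted log2 difference was 8.07 ± 0.22 (SE, edgeR adjusted p = 4.49e-24). Its size depends on the prior count, since 5 of the 16 strain and sex groups of the other strains had no count of the gene, and the ratio of mean CPM was 50.9. Pttg1, which encodes securin, the inhibitor of sister chromatid separation, had 30.0, 33.0 and 31.3 CPM in the females and 27.2, 29.8 and 69.6 CPM in the males. The other libraries ran from 0.575 to 3.42 CPM with a median of 1.44. Male 3 held the highest value, and the groups did not overlap without it either. The log2 difference was 4.6 ± 0.10 (edgeR adjusted p = 7.18e-32), it was 4.18 on the high-fat diet, and the gene also passed with the strain as the unit (4.53, limma adjusted p = 0.0447).

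Ifi213, a member of the interferon-inducible Ifi200 family, had 1.41 to 2.02 CPM in C57BL/6J and at most 0.405 CPM elsewhere. Rab6b, a small GTPase of Golgi transport, had 0.798 to 1.85 CPM against at most 0.166 CPM. Olig1, a transcription factor best known from oligodendrocytes, had 4.97 to 17.6 CPM against at most 2.17 CPM. These 3 genes did not overlap between the groups, and neither did Cebpe, a myeloid transcription factor with 0.818 to 8.14 CPM against at most 0.623 CPM, nor the zinc-finger gene Zfp982 with 0.533 to 2.42 CPM against at most 0.426 CPM. The long non-coding RNA Gm32468 overlapped, with 0.209 to 0.484 CPM in C57BL/6J females, 2.44 to 5.88 CPM in C57BL/6J males and up to 1.92 CPM elsewhere. The fitted differences of Cebpe, Ifi213 and Gm32468 also depend on the prior count, since some groups of the other strains had no count. Ifi208, also higher, shares 96.4% of its aligned sequence with Ifi213, which limits both values. Their sum averaged 3.34 CPM in C57BL/6J and at most 0.545 CPM in another strain.

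**Figure D1:**
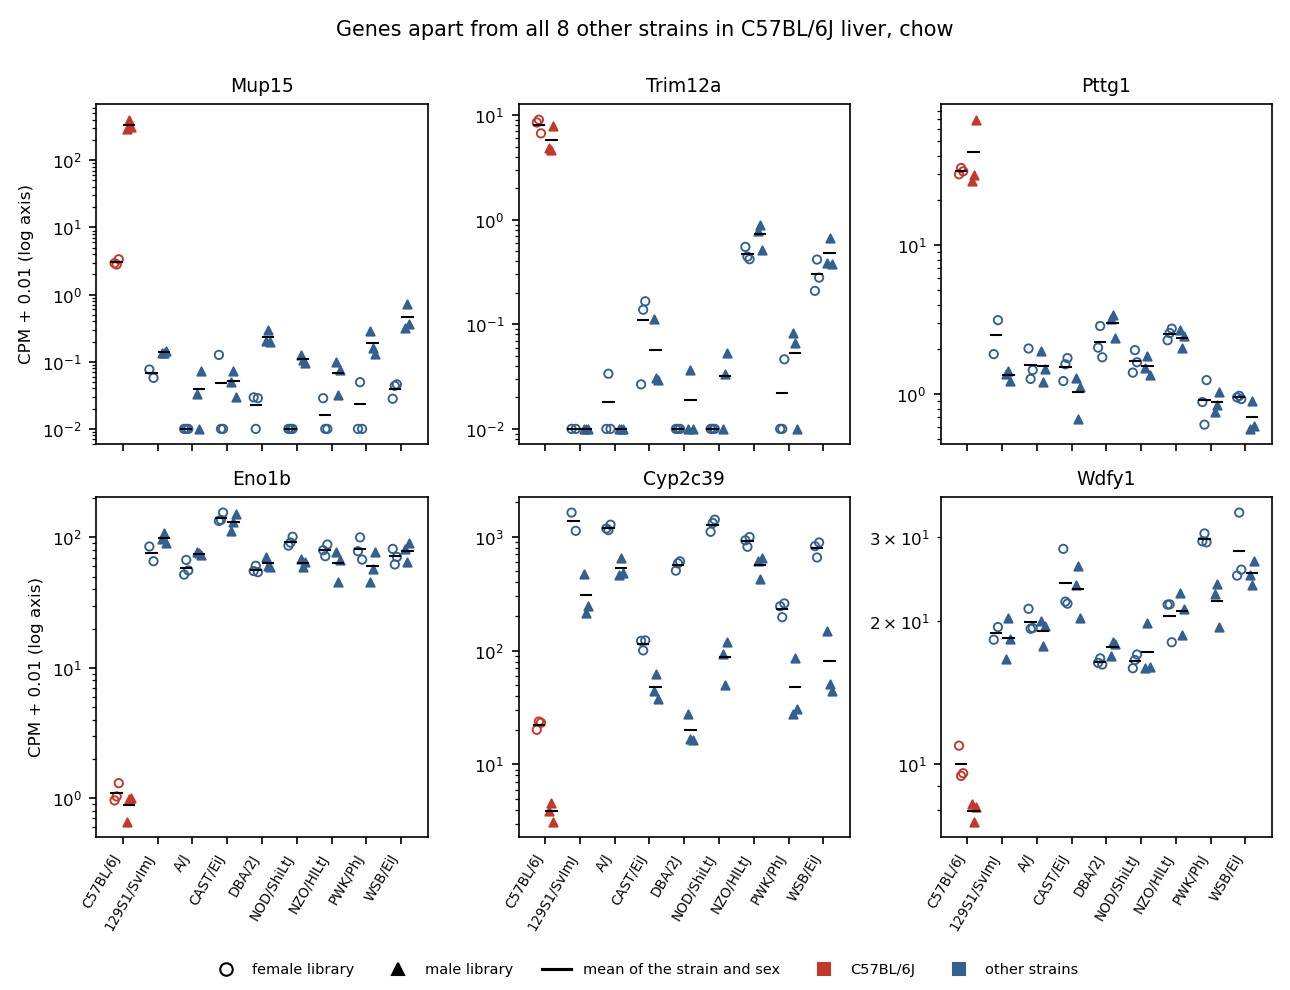
CPM + 0.01 on a log axis for 6 genes apart from all 8 strains, by strain, with open circles for females, triangles for males and bars for the mean of each strain and sex. C57BL/6J (red) lies above every other library for Mup15, Trim12a and Pttg1 and below every other library for Eno1b and Wdfy1, whereas its Cyp2c39 females overlap the DBA/2J males.

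Among the lower genes, sequence copies were frequent. A near-identical protein-coding copy elsewhere in the genome (at least 90% identity over at least 70% of the transcript) was found for 30 of the 122 lower genes (24.6%), for 13 of the 133 higher genes (9.77%) and for 692 of all 14330 genes (4.83%). Pseudogenes made up 25 of the lower genes (20.5%), 9 of the higher genes (6.77%) and 4.14% of all genes. For the 30 lower genes, 23 of them pseudogenes, the copy was higher in C57BL/6J in 22, lower in 3 and not called in 5, where 20.6% of all genes were higher. These are 27 different copies, 19 of them higher, since Rplp0 is the copy of 4 genes. Over the 30 pairs the median log2 difference was -3.80 for the gene and 0.50 for the copy. When gene and copy were added, the median log2 ratio was 0.14, and the sum lay inside the range of the 8 strain means in 19 of the 30.

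The pair with the widest gap was the processed pseudogene Gm9855 and Tdg, which encodes thymine DNA glycosylase. Gm9855 had no count in 2 C57BL/6J libraries and at most 0.0951 CPM in the others of the strain, against 0.377 to 8.93 CPM elsewhere (median 4.05). Tdg had 16.3, 17.8 and 14.2 CPM in C57BL/6J females and 13.4, 14.1 and 8.00 CPM in males, against 4.26 to 14.0 CPM elsewhere (median 5.97). The groups did not overlap for Gm9855 and overlapped for Tdg through males 1 and 3. Their sum averaged 14.0 CPM in C57BL/6J and 10.2 CPM in the other strains. A stretch of 80 bases of each in GENCODE M21 (GRCm38), from a coding exon of Tdg, is printed, and capitals mark the 4 positions at which they differ. It was picked as the stretch with the most differences. Over its aligned transcript Gm9855 is 99.2% identical to Tdg.
Tdg, chr10:82648578-82648657, plus strand, exon 10: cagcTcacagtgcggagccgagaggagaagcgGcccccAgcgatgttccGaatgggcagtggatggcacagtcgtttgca
Gm9855, chr10:42054176-42054255, minus strand: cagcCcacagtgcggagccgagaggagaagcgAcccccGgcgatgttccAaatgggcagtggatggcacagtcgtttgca

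The enolase genes gave the same picture at higher counts. Eno1b had 0.951, 1.02 and 1.29 CPM in C57BL/6J females and 0.650, 0.982 and 0.987 CPM in males, against 45.4 to 155 CPM elsewhere (median 76.0). Eno1, the glycolytic enolase of most tissues, had 524, 555 and 587 CPM in the females and 528, 598 and 578 CPM in the males, against 112 to 446 CPM elsewhere (median 297). The groups did not overlap for either gene, and the log2 differences were -6.32 ± 0.15 and 0.98 ± 0.07 (edgeR adjusted p = 5.90e-31 and 4.10e-14). Their sum was 562 CPM in C57BL/6J and between 234 and 460 CPM in the other strain means. The pseudogene Gm6969 averaged 2.41 CPM against 25.8 CPM beside Cox7a2l, a respiratory supercomplex factor, with 98.7 CPM against 50.8 CPM, and Gm8730 averaged 3.26 CPM against 79.8 CPM beside the ribosomal gene Rplp0 with 459 CPM against 246 CPM. Gm10819 and its copy Pebp1 were both lower. Levels of genes with a near-identical copy are uncertain, because reads aligned to more than 1 place were tallied in a row apart from the genes. The part that alignment to a C57BL/6J assembly had in these values was not tested.

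**Figure D2:**
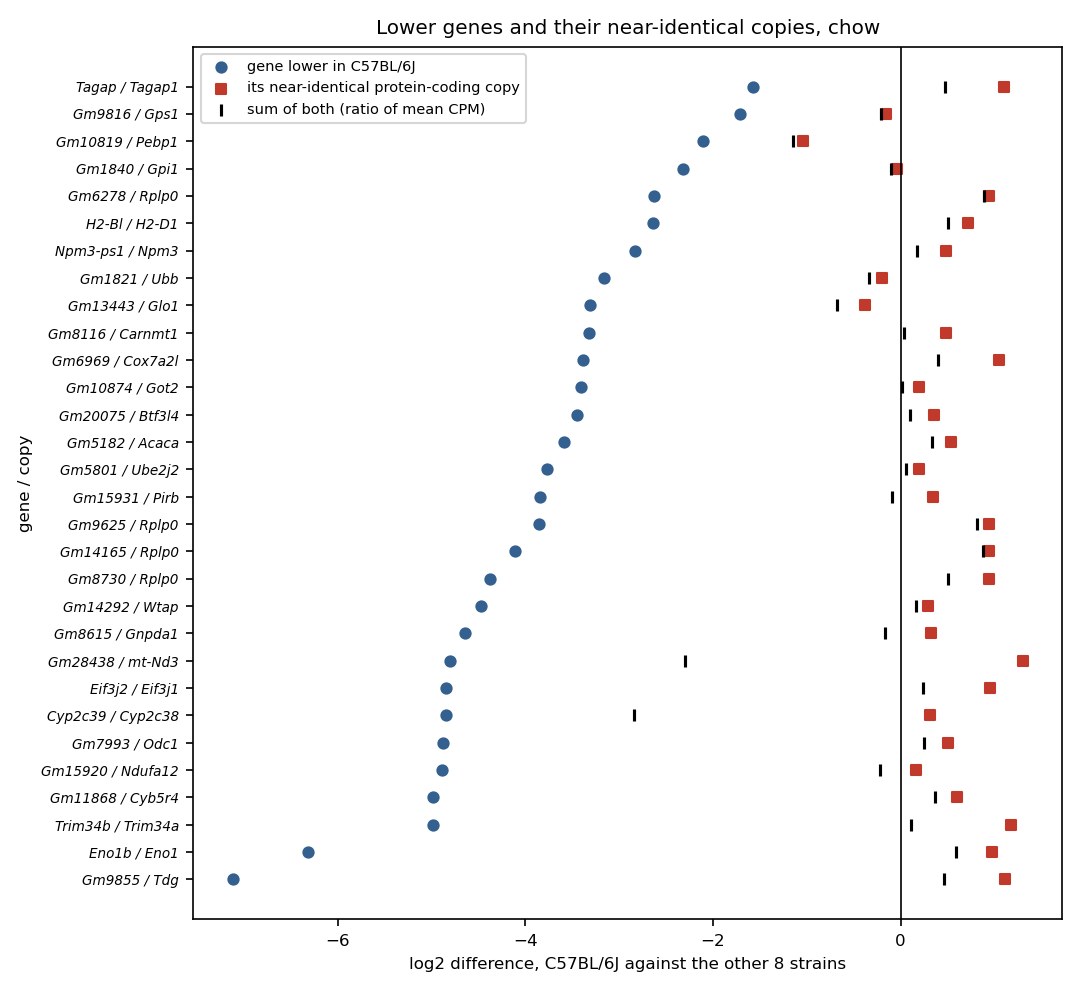
Log2 difference of C57BL/6J against the other 8 strains for the 30 lower genes with a near-identical protein-coding copy (blue circles), for the copy (red squares) and for the sum of both as a ratio of mean CPM (black ticks). The genes lie between -7.12 and -1.57, most copies lie to the right of 0, and the sums of Gm28438 and Cyp2c39 stay far below 0.

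Cyp2c39, a cytochrome P450 of the Cyp2c cluster, was lower by a similar factor, and its copy Cyp2c38 was not called (0.32). Cyp2c39 had 20.1, 23.8 and 23.2 CPM in C57BL/6J females and 3.90, 4.57 and 3.13 CPM in males, against 16.2 to 1626 CPM elsewhere (median 429). Each C57BL/6J sex lay below the same sex of all other strains, and the log2 difference was -4.85 ± 0.27 (edgeR adjusted p = 2.98e-18). Of 13 Cyp2c genes 7 were higher and 2 lower, against the 20.6% and 17.9% of all genes, and Cyp2c37 went the other way with 708, 726 and 904 CPM in females and 302, 257 and 226 CPM in males against 4.54 to 594 CPM elsewhere (log2 difference 2.11 ± 0.14, edgeR adjusted p = 1.35e-15). Cyp2c genes are close in sequence, so shared reads limit each value. Cyp2c39 shares 93.6% of its aligned sequence with Cyp2c38.

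The major urinary proteins (Mup genes) are small pheromone-binding proteins that the liver secretes under male growth hormone and androgen signals, from a cluster of near-identical genes on chromosome 4. In C57BL/6J 11 of 20 measured Mup genes were higher and 2 lower, where 20.6% of all genes were higher and 17.9% lower. Summed over the 20 genes, the 3 C57BL/6J females had 2286, 2484 and 1736 CPM and the other females 75.9 to 1858 CPM (median 678). The C57BL/6J males had 16596, 19413 and 33041 CPM and the other males 2097 to 19272 CPM (median 7751). Males exceeded females in every strain mean, both sexes of C57BL/6J had the highest strain mean, and single libraries of NZO/HlLtJ females and WSB/EiJ males overlapped. Mup3, the most abundant member in females, had 1630 to 2355 CPM in C57BL/6J females and 7351 to 15107 CPM in its males (log2 difference 2.24 ± 0.13, edgeR adjusted p = 1.55e-17), and was chosen for mention after its values were seen.

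Mup15 had 2.92, 2.79 and 3.35 CPM in C57BL/6J females and 292, 401 and 315 CPM in males, against at most 0.704 CPM in any other library. Mup22 had 42.8, 65.7 and 54.8 CPM in females and 228, 225 and 269 CPM in males, against at most 15.5 CPM. Mup11 had 0.25, 1.62 and 0.647 CPM in females and 555, 897 and 1098 CPM in males, against at most 38.8 CPM. The first 2 did not overlap with the other strains in either sex, whereas for Mup11 only the males were apart. Mup20, known as darcin, had 26 to 43.1 CPM in females and 4546, 6463 and 11541 CPM in males, with values up to 6568 CPM elsewhere. The lower members were Mup2 (log2 difference -2.86) and Mup9 (-2.11). A stretch of 80 coding bases of exon 4 was picked as the one with the most positions that differ among the genes compared. In it Mup11, Mup14, Mup15 and Mup22 have the same letters and differ from Mup3 at the 8 positions in capitals (GENCODE M21, GRCm38, minus strand).
Mup3, chr4:62085235-62085314: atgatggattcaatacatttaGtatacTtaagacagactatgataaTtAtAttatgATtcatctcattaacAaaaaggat
Mup15, chr4:61437514-61437593: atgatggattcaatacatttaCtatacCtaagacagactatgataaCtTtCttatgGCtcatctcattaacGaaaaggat
The coding sequences of Mup11 and Mup22 differ at 2 of 543 bases, and those of Mup14 and Mup15 at 6 of 540. Levels of single Mup genes in strains whose cluster differs from the assembly are therefore uncertain.

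**Figure D3:**
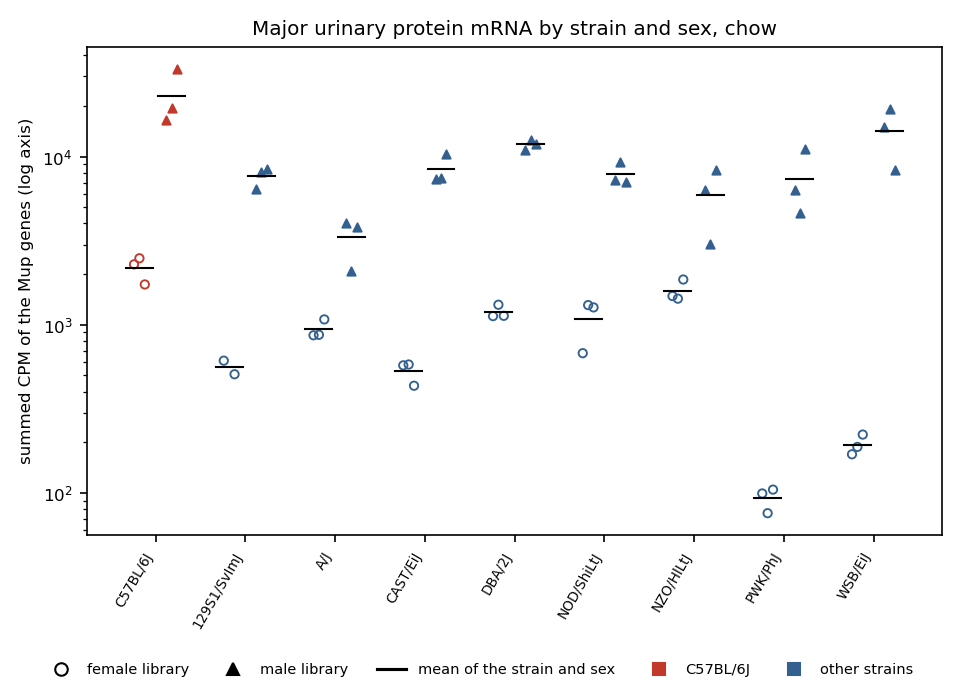
Summed CPM of the 20 Mup genes on a log axis for each chow library by strain, with open circles for females, triangles for males and bars for the mean of each strain and sex. C57BL/6J has the highest mean in both sexes, with male 3 at 33041 CPM.

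Genes of the major histocompatibility complex (MHC) and antigen presentation were more often higher. Of 33 measured members 15 were higher and 5 lower, with a median log2 difference of 0.34 where all genes had a median of 0.01. The 5 lower members, 15.2%, were near the 17.9% of all genes lower, and 20.6% of all genes were higher. On the high-fat diet 22 were higher and 5 lower, against 22% and 20.2% of all genes. The summed level on chow was 9006 CPM in male 3, 5689 to 6829 CPM in the other 5 C57BL/6J libraries and 2475 to 9790 CPM elsewhere. Male 3 held the highest of the C57BL/6J values in 19 of the 33 members, against 33.3% of all genes. Without it 15 members were higher. H2-Q7, a non-classical class I heavy chain, had 89.5, 92.2 and 74.8 CPM in C57BL/6J females and 72.1, 70.8 and 74.3 CPM in males, against 1.61 to 48.4 CPM elsewhere (median 14.4). The groups did not overlap, and the log2 difference was 2.64 ± 0.09 (edgeR adjusted p = 9.53e-25). H2-Q6 was also apart (2.05), with 32.7 to 79.1 CPM against 1.69 to 40.8 CPM. The classical heavy chain H2-K1, chosen after its values were seen, had 1327 to 1956 CPM against 171 to 1488 CPM (1.71 ± 0.09) and was higher than in 7 strains. The lower members were H2-Ea-ps (-4.88), the class II alpha chain gene that C57BL/6J is known not to express, H2-Q2 (-2.19), H2-T10 (-1.89), H2-T24 (-0.89) and the peptide transporter Tap2 (-0.48). B2m, the shared class I light chain, was not called (0.21). MHC genes vary in sequence between strains, and reads of distant haplotypes may be lost from single members.

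Of the 56 interferon-stimulated genes 16 were higher and 3 lower on chow (median 0.23), or 28.6% and 5.36% where 20.6% and 17.9% of all genes were. Without the 3 wild-derived strains 5 were higher. The summed level of the list was 825 to 944 CPM in 5 C57BL/6J libraries, below the median of 1082 CPM of the other libraries, and 1398 CPM in male 3, which held the highest of the 6 values in 33 of the 56 members. In the high-fat mice 48 were higher and 2 lower (median 0.81, where 22% of all genes were higher). The difference between the diets passed for 2 members, the GTPases Gbp6 and Iigp1, so for most of the list it was not shown. The members with the largest differences were Mndal (3.83 ± 0.12), Ifi27l2b (3.33 ± 0.21) and Ifi27l2a (2.04 ± 0.22) upward and Ifi202b (-5.96 ± 0.63) downward. The size for Ifi27l2a depends on the prior count, since 2 of the 16 groups of the other strains had no count, and its ratio of mean CPM was 1.90. Without the wild-derived strains Ifi27l2a had 0.49 and was not called (edgeR adjusted p = 0.0581), and without CAST/EiJ male 1 Ifi202b kept its direction (-5.78) but was not called. Mndal had 9.58, 10.4 and 10.4 CPM in females and 6.99, 8.37 and 9.95 CPM in males, and the other libraries had 0.0336 to 8.56 CPM with a median of 0.293. The upper end came from 129S1/SvImJ, the strain nearest to it, and overlapped the males. Mndal and Ifi202b sit in the Ifi200 cluster of DNA sensors on chromosome 1, in which 9 of 11 measured genes were higher and 1 lower. In the Trim5 cluster on chromosome 7, 6 of 9 genes were higher, Trim12a among them, and Trim34b and Trim6 were lower. Both counts stand against the same 20.6% and 17.9%. The canonical targets Mx1 (-0.20), Isg15 (0.49) and Ifit1 (0.18) were not called on chow.

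Macrophage markers were measured in full, and 7 of 14 were higher and none lower, where 20.6% of all genes were higher. Without the 3 wild-derived strains 2 were higher, and without NZO/HlLtJ male 2 11 were. The 7 higher markers were Marco (2.00), Lyz2 (0.99), Adgre1 (0.62), Vsig4 (0.60), Csf1r (0.48), Timd4 (0.46) and Cd68 (0.42), and on the high-fat diet 11 were higher, where 22% of all genes were. Clec4f, the defining marker of resident Kupffer cells, was not called (0.04), nor were C1qa (0.18) and Cd5l (0.37). Marco, a scavenger receptor, had 9.95, 5.05 and 8.29 CPM in females and 5.76, 12.4 and 37.8 CPM in males, against 0.0366 to 20.9 CPM elsewhere. Male 3 was highest and the groups overlapped. The summed level of the list ran from 540 to 816 CPM in C57BL/6J and from 200 to 1441 CPM elsewhere. In whole liver, more cells of a type and more RNA per cell cannot be told apart. Of the other cell types, 3 of 5 T and NK cell markers, 4 of 9 B and plasma cell markers, 2 of 5 cholangiocyte markers, 3 of 9 stellate cell markers, 1 of 9 endothelial markers and all 3 measured of 7 white adipose markers were higher, and 1 stellate and 1 endothelial marker were lower. Adipoq, Lep, Plin1 and Retn, the other adipose markers, were not among the genes tested. The lists had summed levels inside the range of the other libraries apart from 1 male with 76.4 CPM of cholangiocyte markers against at most 75.2 CPM. No granulocyte marker was called, and 1 of 6 erythroid markers was higher. The part of these cells in the immune lists was not tested.

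Genes listed under cholesterol synthesis and uptake were lower in C57BL/6J on chow. The transcription factor SREBP2 (Srebf2) raises many of them when sterols are scarce. The list also holds genes of sterol export and esterification, such as Abcg8 and Lcat. Of 32 members measured of 33 listed, 19 were lower and 1 was higher, against 17.9% and 20.6% of all genes, with a median log2 difference of -0.46. Mevalonate diphosphate decarboxylase, Mvd, had 1.75, 1.41 and 2.43 CPM in females and 3.38, 3.26 and 3.95 CPM in males, against 2.29 to 20.7 CPM elsewhere (median 7.52). Squalene epoxidase, Sqle, had 8.43, 8.00 and 10.8 CPM in females and 14.2, 11.7 and 11 CPM in males, against 7.91 to 92.8 CPM (median 26.2). For both genes the C57BL/6J libraries lay at the low end and overlapped only the lowest libraries elsewhere. The log2 differences were -1.67 ± 0.30 and -1.42 ± 0.25 (edgeR adjusted p = 2.01e-05 and 1.80e-05), and each was lower than in all 8 strains, as was lanosterol synthase, Lss (-0.68 ± 0.15).

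Along the pathway, Fdps (-1.25), Nsdhl (-0.94), Msmo1 (-0.73), Cyp51 (-0.61), Mvk (-0.61), Acat2 (-0.57), Dhcr7 (-0.45), Fdft1 (-0.38) and Tm7sf2 (-0.36) were lower. So were the sterol carrier Stard4 (-0.53), the biliary sterol exporter Abcg8 (-0.45), the plasma esterifying enzyme Lcat (-0.34) and Srebf2 itself (-0.47). The higher member was the desaturase Sc5d (0.59 ± 0.12). Not called were Hmgcs1 (-0.24), Idi1 (-0.56) and Insig1 (-0.50). The summed level of the list was 3025 to 3374 CPM in the 6 libraries and 3193 to 5397 CPM in the others. In females 13 members were lower and 1 higher, where 10.8% and 13.1% of all genes were. In males 13 were lower and 2 higher, where 12.1% and 17.3% of all genes were.

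On the high-fat diet the same strain comparison gave 8 higher and 2 lower members, against 22% and 20.2% of all genes, and a median of 0.17. Mvd (0.02) and Sqle (0.27) were not called there. The change of the strain difference between the diets, a test added after these values were seen, passed for 776 genes (5.42%), of which 388 (2.71%) were lower on chow. It passed for 437, 483 and 514 genes without C57BL/6J chow female 2, high-fat female 1 and high-fat male 1. In this list 12 members were lower on chow and 1 was higher, with -1.69 ± 0.38 for Mvd and -1.69 ± 0.37 for Sqle (edgeR adjusted p = 0.00272 and 0.00237). Lss (-0.32) did not pass.

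**Figure D4:**
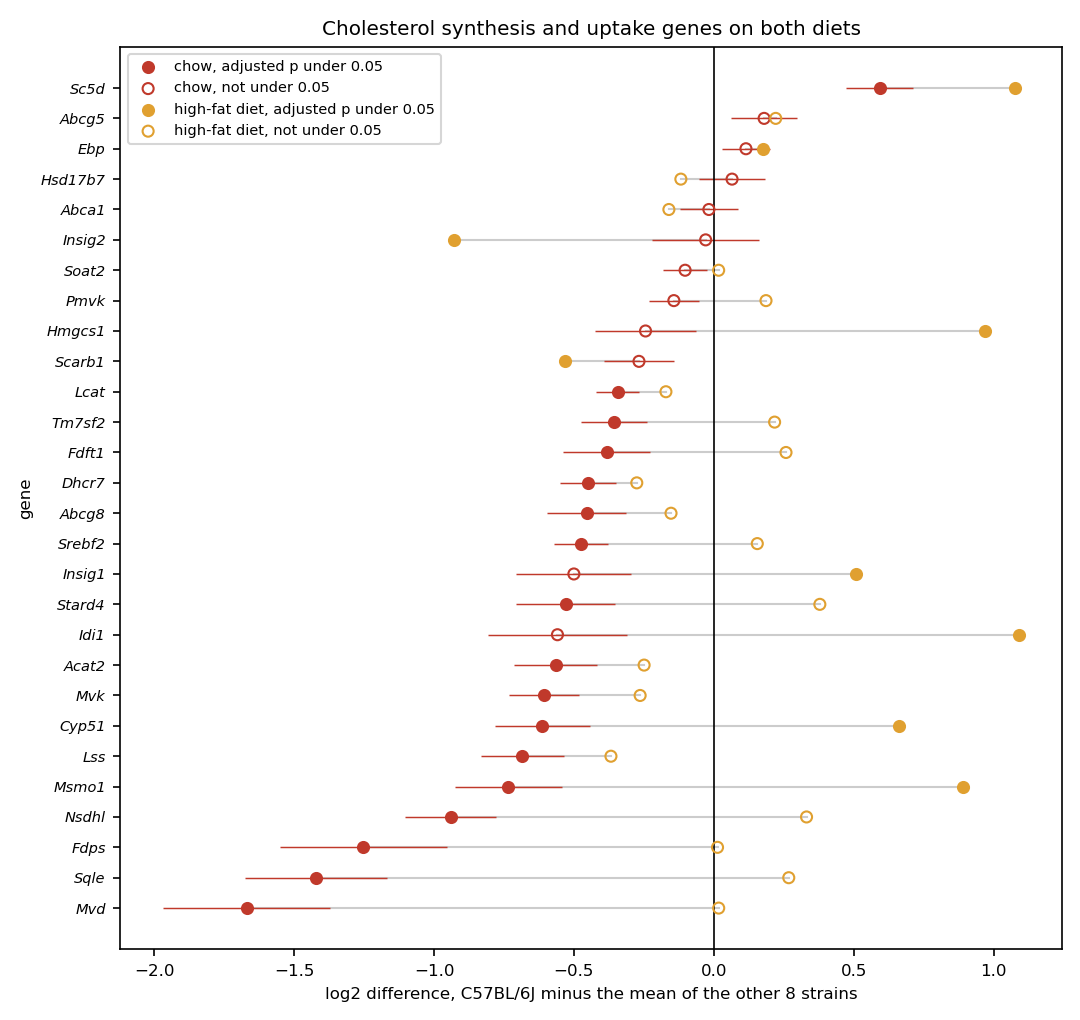
Log2 difference of C57BL/6J from the mean of the other 8 strains for 28 of the 32 cholesterol genes on chow (red, bars are SE) and on the high-fat diet (orange), with filled points at an adjusted p under 0.05. On chow 16 filled points lie left of 0, and on the high-fat diet 7 filled points lie right of 0 and 2 left of it.

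SREBP2 acts at promoters together with NF-Y, which binds the CCAAT box. The 250 bases before the start site of the 2 genes apart from all strains whose promoter is listed in RefSeq (GRCm38.p6) are printed to show these boxes. CCAAT, or ATTGG as read on the other strand, is in capitals, at -60 and -27 in Mvd and at -62 in Lss, counted from the start site.
Mvd, chr8:122443423-122443672, minus strand: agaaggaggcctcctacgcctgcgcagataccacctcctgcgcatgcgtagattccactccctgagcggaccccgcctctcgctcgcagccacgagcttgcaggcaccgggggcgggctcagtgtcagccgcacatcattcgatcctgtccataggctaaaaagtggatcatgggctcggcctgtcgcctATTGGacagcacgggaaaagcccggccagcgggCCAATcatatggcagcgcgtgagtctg
Lss, chr10:76531355-76531604, plus strand: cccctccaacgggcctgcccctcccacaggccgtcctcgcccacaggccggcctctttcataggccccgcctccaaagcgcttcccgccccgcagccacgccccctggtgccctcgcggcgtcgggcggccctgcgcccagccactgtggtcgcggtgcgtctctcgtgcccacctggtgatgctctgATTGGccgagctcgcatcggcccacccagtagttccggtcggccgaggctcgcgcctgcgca
The motif on either strand was in at least 1 promoter of 19 of the 22 cholesterol genes with a listed promoter, 11 of the 12 lower ones among them. Counted by single promoter, it was in 33.8% of all 32851. The sterol element CACCCCAC, likewise on either strand, was in 2 of the 22 genes and in 2.58% of all promoters. A gene can have more than 1 listed promoter, so the counts of genes and the shares of promoters are not in like units. These are matches of letters only.

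Amino acid and urea cycle genes went the other way on chow. Of 37 members 20 were higher and 2 lower (median 0.31), where 20.6% of all genes were higher and 17.9% lower. In the high-fat mice 8 were higher and 8 lower (median -0.06), close to the 22% and 20.2% of all genes. Cth, cystathionine gamma-lyase of the transsulfuration route to cysteine, had 944, 1148 and 1077 CPM in females and 994, 1293 and 669 CPM in males, against 195 to 902 CPM elsewhere (median 393). Only male 3 fell within the range of the other strains. The log2 difference was 1.27 ± 0.16 (edgeR adjusted p = 2.58e-08), higher than in all 8 strains. Bhmt, which remethylates homocysteine, differed by 1.33 ± 0.19, with 3078 to 3906 CPM against 74.7 to 4902 CPM, and Oat, ornithine aminotransferase, by 0.95 ± 0.11. In the urea cycle Asl (0.89 ± 0.13), Cps1 (0.73 ± 0.13) and Ass1 (0.41 ± 0.12) were higher, whereas Otc (0.17) was not called. Gldc (-0.42) and Psph (-0.37), of glycine breakdown and serine synthesis, were the lower members. The diet test passed for 9 members, all higher on chow, where 2.71% of all genes were, among them Cth (1.25), Asl (1.10), Cps1 (1.05), Hal (0.77) and Mat1a (0.52).

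The subunits of oxidative phosphorylation, listed as 74 genes, were higher in 36 cases and lower in none (median 0.22), where 20.6% of all genes were higher, but this count rested on male 3. Their summed level was 9640, 10529 and 11475 CPM in females and 11573, 12381 and 20883 CPM in males, against 9481 to 14808 CPM elsewhere (median 11361). The first 5 libraries lay inside the range of the other strains and male 3 above it. Male 3 held the highest of the 6 values in 69 of the 74 members, against 33.3% of all genes. Without it 7 members were called, without female 3 22 and without male 1 48. In females 3 were higher, where 13.1% of all genes were, and in males 56, where 17.3% were. Ndufa3, of complex I, had 63.8, 71.7 and 81.9 CPM in females and 81.0, 85.5 and 264 CPM in males, and Atp5h, of ATP synthase, had 150, 172 and 192 CPM and 179, 183 and 485 CPM. Ndufa3 was not called without male 3 (0.17, edgeR adjusted p = 0.124). Cox7a2l (1.05 ± 0.06) had 85.4 to 140 CPM against at most 73.3 CPM elsewhere, without overlap, and has the pseudogene copy described above. Ndufs5 (1.16 ± 0.08) had 26.8 to 66.3 CPM against at most 34.4 CPM. In the same male the summed level of extracellular matrix genes was 1675 CPM against 3098 to 3415 CPM in the other 5 and 2256 to 4689 CPM elsewhere.

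Drug-metabolising genes differed in both directions. Of 54 cytochrome P450 genes 17 were higher and 9 lower (median 0.11), and of 52 conjugating enzymes 18 were higher and 7 lower (0.16), where 20.6% of all genes were higher and 17.9% lower. The lower share of the P450 genes, 16.7%, was near that of all genes. Cyp3a44 (-2.37), Cyp2a4 (-1.96) and the sulfotransferase Sult3a1 (-2.14), all high in females, were lower, with 53.4 to 110 CPM, 449 to 514 CPM and 72.3 to 163 CPM in C57BL/6J females. Ugt1a9 (-2.02), a glucuronosyltransferase, averaged 28 CPM against 139 CPM. Sult2a7 (2.08) and Gstm3 (1.73) were higher on the log scale, but Sult2a7 averaged 2.04 CPM against 3.02 CPM, since it was lower than in 1 strain and higher than in 6, and NZO/HlLtJ had the highest mean. The ratio of mean CPM was 1.11 for Gstm3, which without the wild-derived strains had 0.38 and was not called (edgeR adjusted p = 0.0753). All of these belong to families with similar sequences. Of 35 NRF2 and glutathione genes 9 were higher and 4 lower, among them Gclc (-0.94 ± 0.16), the rate-limiting enzyme of glutathione synthesis, with 117 to 199 CPM against 112 to 840 CPM. Male 3 stood apart in the summed level of both lists, with 18010 CPM of conjugating enzymes against 8936 to 13942 CPM in the other 5 libraries and at most 15842 CPM elsewhere, and 13196 CPM of NRF2 and glutathione genes against 7492 to 9351 CPM and at most 11939 CPM.

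In lipid metabolism, 12 of 43 genes of fatty acid synthesis and storage were higher and 5 lower, and 14 of 48 genes of fatty acid oxidation were higher and 2 lower, against 20.6% and 17.9% of all genes. Scd1, stearoyl-CoA desaturase, had 2948, 2100 and 2150 CPM in females and 1839, 2524 and 4137 CPM in males, against 58.4 to 13204 CPM elsewhere (median 617). Its log2 difference was 1.74 ± 0.28 (edgeR adjusted p = 3.02e-06), and it was higher than in 6 strains and lower than in 1. Fitm1 (1.68), of lipid droplet formation, and Pparg (1.5), the adipogenic nuclear receptor, were higher, with Pparg at 7.22 to 16.9 CPM. Ppargc1a (0.93) and Crot (0.65), of mitochondrial control and peroxisomal export of acyl groups, were higher. Of 31 bile acid genes 6 were higher and 5 lower, with Cyp39a1 (1.86) and the uptake carrier Slco1a4 (1.25) higher and Cyp46a1 (-2.35) lower. The ratio of mean CPM was only 1.25 for Cyp39a1. Cyp7a1, the rate-limiting enzyme of bile acid synthesis, had 48.4 to 159 CPM against 0.0991 to 323 CPM and barely passed (1.18 ± 0.47, edgeR adjusted p = 0.0438). Its call was lost without any 1 of 7 libraries, most with 0.82 (0.234) without C57BL/6J male 2, and with 0.57 (0.167) without the wild-derived strains. It was also lost with DESeq2 (adjusted p = 0.0643), with limma (0.0651) and without each of WSB/EiJ, PWK/PhJ, A/J, NZO/HlLtJ and NOD/ShiLtJ singly. Of 31 apolipoprotein and lipoprotein genes 6 were higher and 4 lower, with Pltp (1.01) and Pon3 (0.58) higher and Saa4 (-0.76) lower, the last not called without C57BL/6J female 1 (edgeR adjusted p = 0.0527). The higher share of both lists, 19.4%, was near that of all genes. Male 3 had 19507 CPM of fatty acid synthesis and storage genes, against 11479 to 13931 CPM in the other 5 C57BL/6J libraries and 6667 to 23840 CPM elsewhere. Of apolipoprotein and lipoprotein genes it had 107031 CPM, against 49301 to 61574 CPM and 38540 to 117731 CPM.

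Plasma protein genes were lower about as often as all genes, of which 17.9% were lower and 20.6% higher. Of 48 complement and coagulation genes 6 were higher (12.5%) and 11 lower (22.9%), and of 30 acute phase genes 2 were higher (6.67%) and 6 lower (20%). In males 7 complement and coagulation genes were higher and 5 lower and 6 acute phase genes were higher and 3 lower, where 17.3% of all genes were higher and 12.1% lower. In females the counts were 3 and 6 for the first list and 0 and 5 for the second, where 13.1% and 10.8% of all genes were. The complement gene C4a, the sex-limited protein, had 7.54 to 16.8 CPM against 8.58 to 912 CPM (median 86.5), a log2 difference of -2.95 ± 0.21 (edgeR adjusted p = 7.22e-15). Coagulation factor F11 (-0.89) and C8a (-0.80) were lower and protein S, Pros1 (0.79), was higher. Serpina3c (-3.03), Hamp2 (-2.35) and Apcs (-1.04) were lower. In glucose and glycogen metabolism 13 of 38 genes were higher and 4 lower. Pfkl, the liver phosphofructokinase, had 27.2 to 38.9 CPM against 32.1 to 220 CPM (median 58.7) and was lower than in all 8 strains (-1.0 ± 0.10, edgeR adjusted p = 1.61e-10), whereas glycogen synthase Gys2 (0.92 ± 0.12) was higher. Of 31 extracellular matrix genes 11 were higher and 3 lower, with Lum (1.05) and Col3a1 (1.02) higher and Col5a2 (-1.33) lower, the last with 0.11 and no call without the wild-derived strains (edgeR adjusted p = 0.686). Of 20 pericentral hepatocyte genes 6 were higher and 3 lower, and of 20 periportal genes 8 were higher and 2 lower. Of 23 clock genes Dbp (1.14) was higher and Nfil3 (-0.69) and Cry1 (-0.58) were lower, each with an adjusted p of 0.0258 or more. Without C57BL/6J female 3 none of these 3 was called, with 0.45 for Dbp (edgeR adjusted p = 0.533), -0.62 for Nfil3 (0.0802) and -0.43 for Cry1 (0.184). Cry1 lost its call without any 1 of 34 libraries, Dbp without any 1 of 5 and Nfil3 without any 1 of 4. Dbp was also not called with DESeq2 (adjusted p = 0.0559) or limma (0.0784), and none of the 3 was called without DBA/2J or without NOD/ShiLtJ. The part of the hour of dissection was not tested.

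Genes already known to vary between inbred strains were checked as a group, and of 13 measured 3 were higher (23.1%) and 5 lower (38.5%). The higher share was near the 20.6% of all genes, of which 17.9% were lower. The summed level of the list was 13280 CPM in male 3, 4902 to 6922 CPM in the other 5 libraries and at most 10744 CPM elsewhere. Ide, insulin-degrading enzyme, had 81.2, 71.4 and 77.2 CPM in females and 93.5, 97.5 and 60.7 CPM in males, against 25.4 to 51.9 CPM elsewhere (median 42.3). Wdfy1, an endosomal adaptor, had 10.9, 9.43 and 9.55 CPM in females and 8.21, 7.55 and 8.12 CPM in males, against 15.9 to 33.7 CPM (median 20.0). Neither gene overlapped between C57BL/6J and the other strains. The log2 differences were 0.98 ± 0.07 and -1.22 ± 0.07 (edgeR adjusted p = 8.50e-16 and 2.60e-18), and 1.19 and -1.10 on the high-fat diet. Hc, complement C5, was higher (0.78 ± 0.10), singly than in 4 strains. Nnt, which carries a deletion in C57BL/6J, was listed higher (0.80 ± 0.14) at 0.596 to 1.85 CPM, but 2 annotated gene models overlap there and the value is uncertain. Glo1 (-0.38) and Alad (-0.51), which lie in duplications of some strains, were lower. Without A/J neither was called (-0.18 and -0.34, edgeR adjusted p = 0.227 and 0.0913), nor was Glo1 without DBA/2J (0.058). Apobec3 (0.28), Ahr (0.23), Gpnmb (0.60), Apoa2 (0.05) and Cyp4a12a (-0.45) were not called. Cyp4a12a was lower without C57BL/6J female 3 (-1.14, edgeR adjusted p = 0.00938), and Gpnmb was higher in 7 alternatives, among them without C57BL/6J male 1 (0.85, 0.00668). Apobec3 was higher in 5 alternatives and Ahr in 2, and each of these genes was higher without CAST/EiJ (0.43 and 0.29, edgeR adjusted p = 0.0095 and 0.0359).

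In 242 genes (1.69%) the C57BL/6J difference depended on sex, with a higher value of this difference in males than in females for 179 (1.25%) and a lower one for 63 (0.44%). This count moved with single libraries, from 1152 without C57BL/6J male 1 and 738 without male 2 to 34 without male 3, 32 without female 1 and 40 without female 2. It was 158 and 365 without NZO/HlLtJ males 1 and 2, 154 and 485 without PWK/PhJ males 2 and 3 and 373 without WSB/EiJ female 2. Without single strains it was between 93 and 707, and 823 without the 3 wild-derived strains. Serum amyloid A1, Saa1, an acute phase protein, had 9.54, 10.1 and 15.6 CPM in C57BL/6J females and 1140, 1324 and 1590 CPM in males. In the other strains the female means ran from 27.8 to 626 CPM and the male means from 8.29 to 337 CPM, apart from NZO/HlLtJ males with 28.3 to 24271 CPM. All 3 C57BL/6J males were above every other male outside NZO/HlLtJ. The C57BL/6J difference from the other strains in males minus that in females was 7.19 for Saa1 (edgeR adjusted p = 0.0216) and 7.72 for Saa2 (0.0265). Both calls were lost when male 3 or any 1 of the 3 females was left out, with an adjusted p of up to 0.173 and 0.181. Mup14 had 0.117, 0.173 and 0.247 CPM in females, within the range of other females, and 574, 769 and 834 CPM in males against at most 13.2 CPM in any other male, and the same difference of differences was 7.19 (edgeR adjusted p = 6.65e-07).

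Cyp2b9, a P450 that is female-typical in mouse liver, went the opposite way. It had 385, 423 and 509 CPM in females and 0.523, 0.691 and 0.609 CPM in males. Most strains shared this pattern, with female means of 56.9 to 793 CPM and male means of 0.277 to 40.2 CPM in WSB/EiJ, NZO/HlLtJ, CAST/EiJ, NOD/ShiLtJ, DBA/2J and PWK/PhJ. The exceptions were A/J, with 499 and 428 CPM, and 129S1/SvImJ, with 0.0970 and 0.542 CPM. Against the other strains it differed by 2.05 in females and -2.05 in males, and the difference in males minus that in females was -4.10 (edgeR adjusted p = 6.77e-07). Hamp2, one of the hepcidin genes, had 14.6 to 30.2 CPM in females and 0.309 to 1.01 CPM in males, and its strain difference in males minus that in females was -3.45 (edgeR adjusted p = 0.0152). The female mean exceeded the male mean in 7 of the 8 other strains too, for example 6.76 against 1.03 CPM in NOD/ShiLtJ, 840 against 174 CPM in DBA/2J and 845 against 450 CPM in NZO/HlLtJ, and PWK/PhJ had 121 and 132 CPM.

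**Figure D5:**
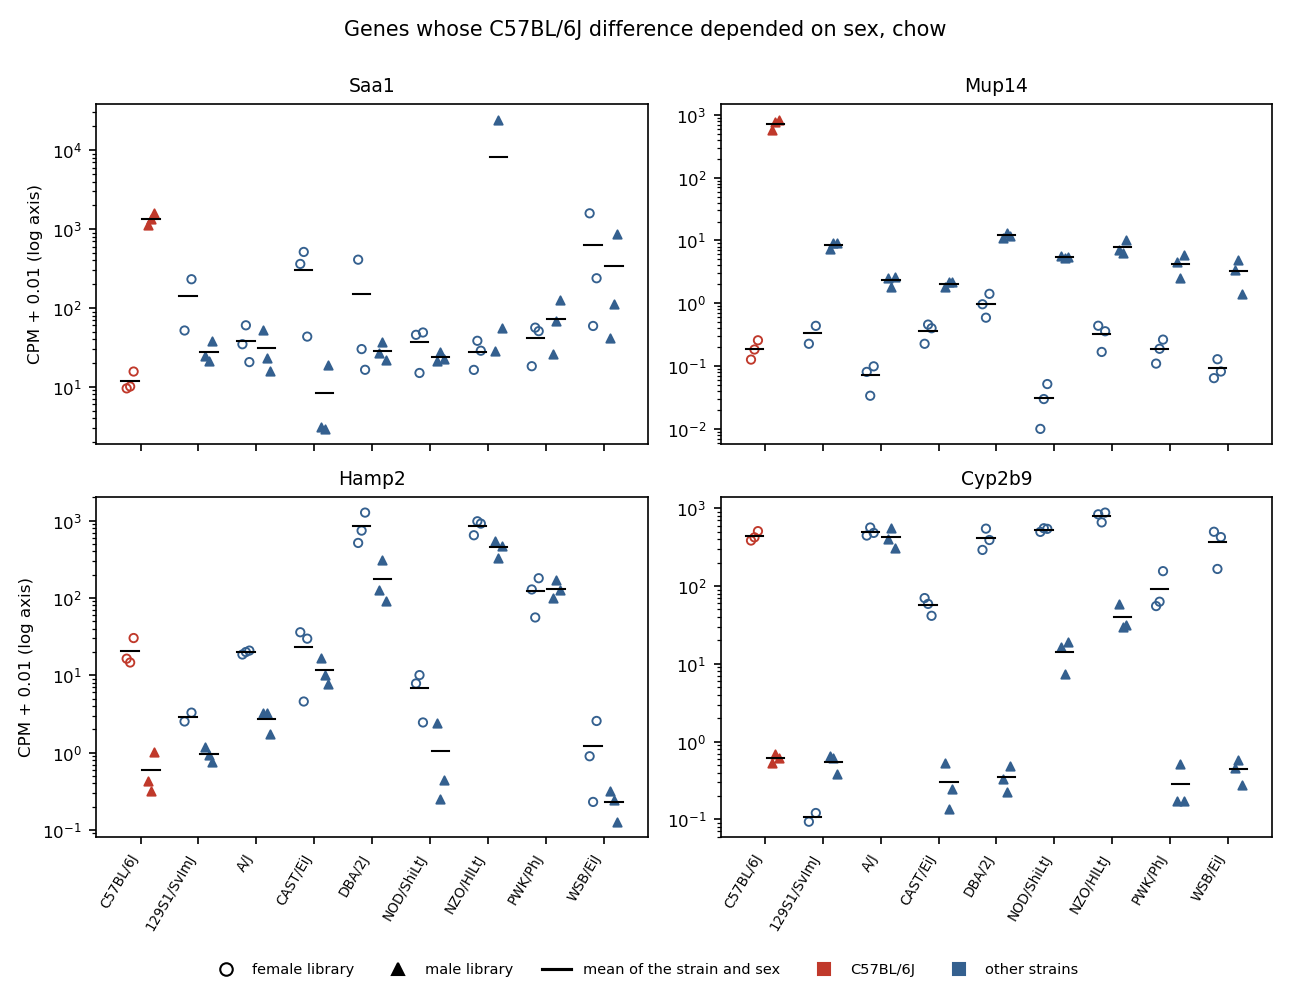
CPM + 0.01 on a log axis for 4 genes whose C57BL/6J difference depended on sex, by strain, with open circles for females, triangles for males and bars for the mean of each strain and sex. Saa1 and Mup14 are high in C57BL/6J males, and Cyp2b9 and Hamp2 are higher in females than in males in C57BL/6J and in most other strains.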

How the data were processed

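Liver mRNA libraries of 9 inbred strains, both sexes and 2 diets were read from a table of counts per gene that the authors deposited. The values are whole counts, although the table's name speaks of TMM. The submitters' processing notes name FastQC, STAR 2.73a and edgeR 3.24.3; the genome build, the counter and the strand setting are not given in the sources used here. Rows of uncounted reads and 1 chow column, of a 129S1/SvImJ female, were left out.

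Counts were fitted with edgeR 4.0.16 in R 4.3.3 (TMM factors, trended dispersion, quasi-likelihood test) over the 18 strain and sex groups on chow, 53 libraries with 35 residual degrees of freedom, and again over the high-fat libraries with 34. C57BL/6J was set against the mean of the 8 other strains with sexes averaged, and p-values were adjusted by Benjamini-Hochberg over 14330 genes at a threshold of 0.05. limma 3.58.1 and DESeq2 1.42.0 served as alternatives. The test of the diets against each other was added after values were seen. The method was tested on simulated data. CPM are counts scaled by the TMM library size. Copies were found with blastn 2.17.0+ on GENCODE M21 transcripts, which named 14327 genes.

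Named genes are the 12 highest and 12 lowest genes apart from all strains with a mean of at least 1 CPM, up to 4 called members per list, the known strain genes and the 3 genes at each end of the C57BL/6J difference in males minus that in females. Mup3, Lss, H2-K1, Marco, Tdg and list members outside this rule were chosen after their values were seen. Some genes that this rule names are not reported here, though list counts include them. The members and lists were chosen with earlier results of these data known.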

Additional observations from a re-analysis of the deposited data

Results flagged for a closer look

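For 5 genes the C57BL/6J difference in males differed from that in females by edgeR's quasi-likelihood test of the difference itself. On the log2 scale, males minus females, Saa2 had 7.72 (adjusted p = 0.0265), Saa1 had 7.19 (0.0216) and Mup14 had 7.19 (6.65e-07). Cyp2b9 had -4.10 (6.77e-07) and Hamp2 had -3.45 (0.0152). These genes were picked from the ends of the difference. In groups of 3 no test for a single outlying sample was made.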

How the results depend on the processing

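No paired analysis was made, because each library came from a different mouse and the labels name no pairs. With a log2 difference of at least 1 required, counts were 1007 on chow, 1039 in females, 1095 in males, 103 for males minus females, 76 apart genes (at least 1 against each strain singly) and 1163 on the high-fat diet. Among lists the counts were 4 cholesterol genes lower and 3 oxidative phosphorylation, 2 amino acid, 6 MHC, 5 interferon, 9 Mup and serpin and 1 macrophage genes higher. With the strain as the unit they were 10, 8, 11 and 8 on chow, in females, in males and on the high-fat diet, and 0 in each of these lists except 1 Mup or serpin gene. Males minus females gave 123 genes with limma, 601 with DESeq2, 805 in a fit of all 36 groups and 823 without the wild-derived strains, and 106, 135, 104, 93, 160 and 707 without A/J, CAST/EiJ, DBA/2J, NOD/ShiLtJ, NZO/HlLtJ and WSB/EiJ. Apart genes numbered 167 without genes under the 25th percentile of expression, 1013 without the wild-derived strains and 430 without WSB/EiJ. Without the wild-derived strains 5 interferon and 2 macrophage genes were higher, without the lowest 25th percentile 9 Mup and serpin genes were, and without WSB/EiJ 1389 genes differed between diets.

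Leaving out 1 library gave 4690 to 5805 genes on chow, 1879 (without C57BL/6J female 1) to 3791 in females, 2067 (without male 3) to 4506 in males, 32 (without female 1) to 1152 (without male 1) for males minus females, and 215 to 308 apart. Only the 6 C57BL/6J high-fat libraries were left out in turn for the high-fat count, 5273 to 5535, and only the 12 C57BL/6J libraries for the count between diets, 437 to 1063, with 10 to 14 cholesterol genes lower there. The lists ran from 15 to 22 (cholesterol), 7 to 48 (oxidative phosphorylation), 16 to 20 (amino acid), 15 to 16 (MHC), 12 to 21 (interferon), 12 to 15 (Mup and serpin) and 6 to 11 (macrophage). Without the wild-derived strains the direction turned for Pon2 (-0.042), Ces1g (-0.076), Col5a2 (0.11) and Apoa2 (-0.22), and Apoa2 had -0.056 without CAST/EiJ and -0.021 without WSB/EiJ. Cyp2b9, at 0 in the sex average, had 0.052 with limma and with the strain as the unit, 0.014 with the low-expression filter, 0.0077 with the omitted library, 0.69 (edgeR adjusted p = 0.0199), 0.34 and 0.49 without A/J, NOD/ShiLtJ and NZO/HlLtJ and 0.0013 with DESeq2, and it was lower without 129S1/SvImJ (-0.87, 0.0045) and without the wild-derived strains (-0.82, 0.00144). Leaving out 1 library gave -0.196 (without male 3) to 0.155 for Apoa2 and -0.062 to 0.048 for Cyp2b9. The causes were not tested.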
